A study of Mus musculus with 2 samples.

Results

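The receptors that share the common gamma chain were followed across lymphoid barcodes of the embryonic mouse thymus. The 8 members, of 22032 genes in the table, were found by symbol: Il7r, Il2rg, Il2ra, Il2rb, Il4ra, Il9r, Il15ra and Il21r. All 8 were present and all had UMIs (unique molecular identifiers, 1 per captured RNA molecule), between 655 for Il15ra and 19852 for Il7r. The study sorted double-negative 1 (DN1) cells from embryonic thymus of 5x polychromILC mice, a strain with 5 reporter rows in the table, and profiled them with 10x 3' v3 chemistry. The labels name 1 library at E15.5 and 1 at E19.5, both from the same strain, tissue and sort, and give no number of embryos. The extraction label mentions a lysis step that yields nuclei, and it is unsettled if the libraries hold cells or nuclei. No label ties a column of the count table to either library (0 of 6057), so the stages were not compared. The barcodes carry suffix 1 or suffix 2, and values are given within each.

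Interleukin 7, 2, 4, 9, 15 and 21 each use a receptor that contains the common gamma chain, the product of Il2rg, beside a chain of their own. The interleukin 7 receptor, made of the products of Il7r and Il2rg, is known for the survival of lymphoid progenitors and innate lymphoid cells (ILCs). Interleukin 15 acts through the products of Il2rb and Il2rg and is known for the survival of natural killer (NK) cells, while the product of Il2ra, CD25, marks the DN2 and DN3 steps of T cell development. Binding activates the kinases JAK1 and JAK3, which phosphorylate STAT proteins, and SOCS proteins and CIS feed back on the signal.

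After filters 5412 of 6057 barcodes remained, 2137 of suffix 1 and 3275 of suffix 2, with 713 to 113167 UMIs each. The median was 14841 UMIs in suffix 1 and 13688 in suffix 2. Across the suffixes 25 barcode sequences occurred in both, and for 3 of them both copies were kept. A barcode entered a gate with at least 2 UMIs of each of 2 genes and if it passed no other gate. The ILC2 gate (Icos and Rora) held 984 barcodes, 193 of suffix 1 and 791 of suffix 2. In the NK/ILC1 gate (Xcl1 and Nkg7) there were 1379, 884 and 495. The gamma-delta T gate (Cd3d and Sox13) held 44, of which 43 were of suffix 2, so values within a suffix are given there for suffix 2 alone. The DN2/DN3 gate (Cd3g and Myb) held 246, 134 and 112, and the progenitor gate (Spi1 and Bcl11a) 786, 231 and 555. Another 1661 barcodes passed no gate and 312 passed several.

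The gates were checked against marker lists without the gate genes. All 8 progenitor markers and all 8 ILC2 markers were highest in their own gate, as were 7 of 8 NK/ILC1 markers. Only 5 of 8 held for the gamma-delta T gate and 5 of 8 for the DN2/DN3 gate. Pooled and within suffix 2, the DN2/DN3 gate was also the highest of the 5 for all 4 alpha-beta thymocyte markers. In suffix 1, Cd8a, Cd8b1 and Cd4 of these were at 0 in it. Pooled, it was the highest for 3 of 4 mast cell or basophil markers. Gzma, a granzyme of the NK list, stood there at 1663 CPM (UMIs of a gene per 1e6 UMIs of its group). The DN2/DN3 markers summed to 607 CPM in their own gate and to 1129 CPM in the gamma-delta T gate. In the gamma-delta T gate Gzma was at 2656 CPM while Ncr1, the NK receptor NKp46, was at 0. In suffix 1, 17.2% of the NK/ILC1 gate (152 barcodes) held at least 2 UMIs of the epithelial genes Krt8, Krt18 and Prss16, against 1.01% (5 barcodes) in suffix 2.

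A pair of upstream sequences is shown, of a member that stands high in 1 gate and of the chain that all share, both with a RefSeq start at the end of the GENCODE M21 gene. Il9r differed 10.4-fold between its highest and lowest gate (4.12-fold in suffix 1, 14.3-fold in suffix 2) and Il2rg 3.82-fold. Each run is the 250 bases before the RefSeq start (GRCm38.p6), 5′ to 3′ on the gene's strand, with capitals for matches to the motifs below. Il9r lies at chr11:32200280-32200529 and Il2rg at chrX:101268256-101268505, both on the minus strand.
Il9r: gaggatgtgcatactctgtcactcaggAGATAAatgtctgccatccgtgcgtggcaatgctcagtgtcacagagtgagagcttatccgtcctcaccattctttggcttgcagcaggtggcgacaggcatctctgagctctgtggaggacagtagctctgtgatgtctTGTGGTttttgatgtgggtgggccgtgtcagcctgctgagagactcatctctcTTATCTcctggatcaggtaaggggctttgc
Il2rg: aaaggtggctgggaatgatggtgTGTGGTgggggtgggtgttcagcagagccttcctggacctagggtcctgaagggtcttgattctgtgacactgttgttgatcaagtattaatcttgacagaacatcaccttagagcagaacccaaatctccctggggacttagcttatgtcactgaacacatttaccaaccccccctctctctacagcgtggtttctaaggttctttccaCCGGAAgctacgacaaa

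Motifs were searched on both strands. The letters AGATAA, bound by GATA factors, occurred in the Il9r window at -223 to -218 and, on the opposite strand, at -30 to -25. Of 32851 RefSeq windows of this length, 9.99% held that motif. TGTGGT, bound by Runx factors, occurred at -83 to -78 of Il9r and at -227 to -222 of Il2rg, and in 14.0% of all windows. CCGGAA, an ETS motif, occurred at -17 to -12 of Il2rg and in 3952 of all windows. The ETS motif GAGGAA, in 23.3% of all windows, and a STAT motif of TTC and GAA with 3 bases between, in 7.02%, matched in neither. These matches are letters in a window and not measured binding. On GRCm38, Il7r spans chr15:9505788-9530176 and Il2rb chr15:78479256-78495271, both on the minus strand. Il2ra and Il15ra are neighbours on chromosome 2, 12096 bases apart, and Il4ra and Il21r on chromosome 7, 23954 bases apart.

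Il7r, the ligand-binding chain for interleukin 7, was highest in the ILC2 gate in both suffixes. Pooled, it stood at 572 CPM in the ILC2 gate (95% exact Poisson interval 560 to 585), 110 in NK/ILC1, 120 in gamma-delta T, 76.9 in DN2/DN3 and 24.9 in the progenitor gate (23.1 to 26.9). Ranked by pooled level, every neighbouring pair had separate intervals except gamma-delta T and NK/ILC1. Within suffix 2, which held nearly all gamma-delta T barcodes, NK/ILC1 (249 to 275) was separate from gamma-delta T (98.0 to 152). There gamma-delta T overlapped DN2/DN3. Levels of different genes are not compared, since 3' capture differs between genes. With 1 library per stage there is no replicate, so no test was run, and all intervals cover counting error only.

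Within suffix 1, Il7r reached 213 CPM in the ILC2 gate, 27.2 in NK/ILC1, 62.1 in DN2/DN3 and 19.4 in the progenitor gate. Within suffix 2 the levels were 696 CPM in ILC2, 262 in NK/ILC1, 123 in gamma-delta T, 99.8 in DN2/DN3 and 27.2 in the progenitor gate. Thus NK/ILC1 ranked below DN2/DN3 in suffix 1 and above it in suffix 2.

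The log2 ratio of Il7r, ILC2 over progenitor, was 4.52 (conditional exact 95% interval 4.41 to 4.64). It was 3.46 (3.20 to 3.72) within suffix 1 and 4.68 (4.55 to 4.81) within suffix 2. Of genes with at least 50 CPM in either gate, 20.7% were past 2-fold in either direction (657 of 3177). Transcripts high in the ILC2 gate were also followed into the progenitor gate. There the ILC2 gene Il1rl1, the interleukin 33 receptor, had 0.423 CPM in suffix 2, or 0.165% of its ILC2 level, while Il7r had 3.91% of its own. In suffix 1 those shares were 2.31%, on 0.654 CPM of Il1rl1 in the progenitor gate, and 9.10%. Il7r was not confined to the ILC2 gate, so these shares do not measure its free RNA, whose part was not tested.

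**Figure D1:**
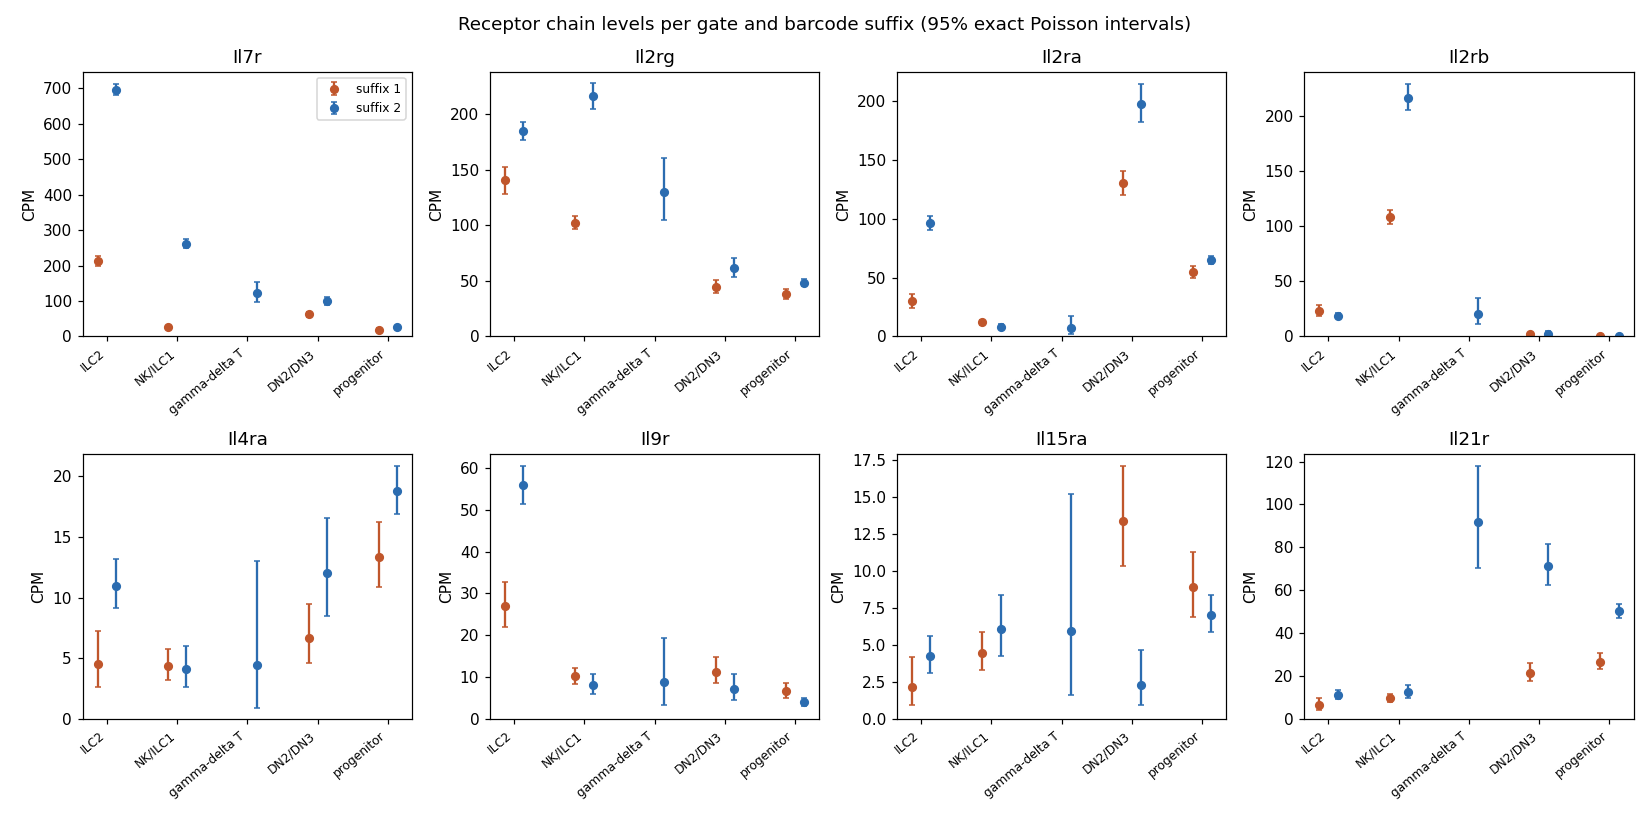
Level of each receptor chain in CPM (y axis, own scale per panel) by gate (x axis) for suffix 1 and suffix 2, with exact Poisson 95% intervals. Il7r peaks in the ILC2 gate (213 CPM in suffix 1 and 696 in suffix 2), Il2rb in NK/ILC1 and Il2ra in DN2/DN3, and the gamma-delta T gate is drawn for suffix 2 only.

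Counted per barcode, Il7r was broad in ILC2 barcodes and sparse in progenitors. Barcodes were thinned to 6974 UMIs each, which left out 540 shallower ones. With at least 1 Il7r UMI were 94.7% of suffix 2 ILC2 barcodes (719 of 759, unthinned 98.1%) and 64.4% of suffix 1 ones (121 of 188, unthinned 87.0%). The progenitor share was 13.9% in suffix 2 (77 of 554, unthinned 222 of 555) and 9.52% in suffix 1 (22 of 231, unthinned 29.9%). Of 26 barcodes with the mast cell and basophil transcripts Cpa3 and Ms4a2, 8 held an Il7r UMI (30.8%, median 7367.5 UMIs). After thinning it was 5 of 16 (31.2%, Clopper-Pearson 95% interval 11.0 to 58.7%). The progenitor gate had a median of 32319.5 UMIs before thinning. Its thinned shares, and those of DN2/DN3 (29.6%) and suffix 1 NK/ILC1 (14.4%), lay inside or below that wide interval. Whether the mast cell and basophil barcodes express Il7r was not tested, so their share sets no floor for the gates. The part of free RNA in any of these shares was not tested. Among suffix 2 ILC2 barcodes the thinned median was 4 UMIs, with quartiles of 2 and 7, and the highest had 25.

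The DN2/DN3 gate had Il7r above the progenitor gate in both suffixes. The log2 ratio, DN2/DN3 over progenitor, was 1.62 (1.46 to 1.79), with 1.68 within suffix 1 and 1.88 within suffix 2. Past 2-fold in this comparison were 3.80% of genes (111 of 2924). The ILC2 and DN2/DN3 comparisons share the progenitor barcodes, so their ratios are not independent.

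Relative to ILC2, the NK/ILC1 gate had less Il7r, with a log2 ratio of -2.38 (-2.46 to -2.31). The ratio was -2.97 within suffix 1 and -1.41 within suffix 2. In the gamma-delta T gate it was -2.50 (-2.83 to -2.19) within suffix 2, where 83 UMIs were counted. Background shares past 2-fold were 10.6% for NK/ILC1 over ILC2 (310 of 2935) and 9.78% for gamma-delta T over ILC2 (301 of 3079). Both comparisons share the ILC2 barcodes.

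**Figure D2:**
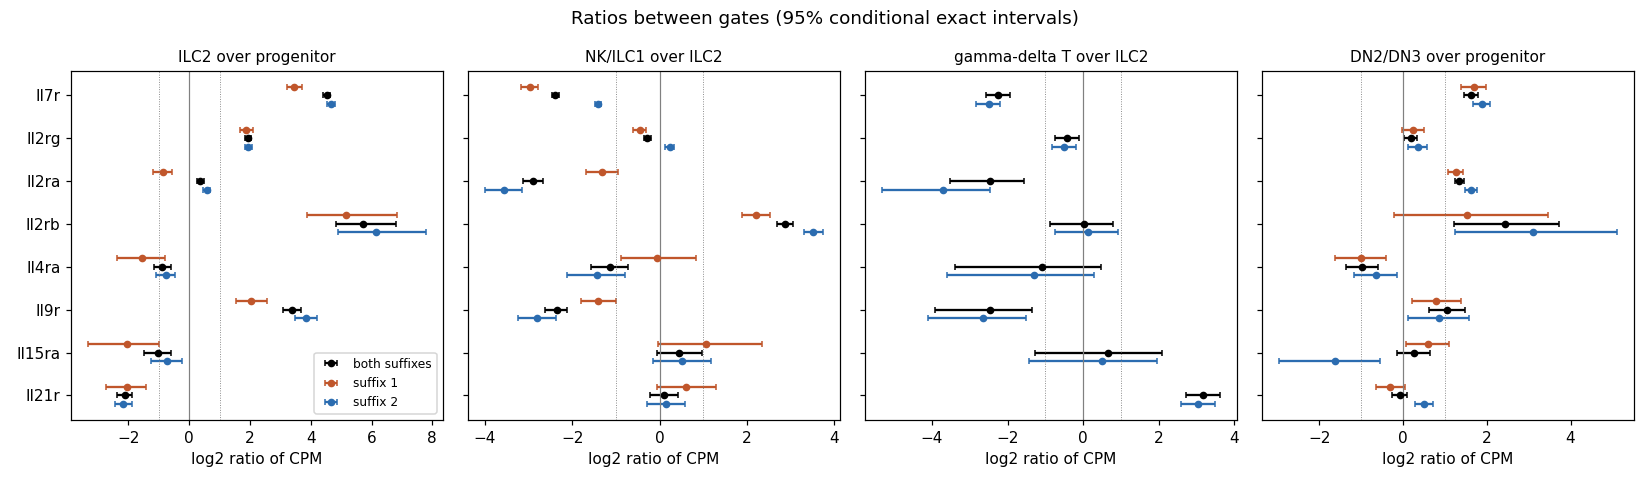
Log2 ratio of the level in CPM (x axis) for each member (y axis) in 4 comparisons of gates, for both suffixes together and each alone, with conditional exact 95% intervals and dotted lines at 2-fold. Il7r has positive ratios over the progenitor gate and negative ones against ILC2, while Il2rb is the member with a ratio of 2.87 in NK/ILC1 over ILC2.

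Il2rg, the shared chain itself, varied less between gates than Il7r (3.82-fold against 23.0-fold pooled, 3.68 against 11.0 in suffix 1 and 4.48 against 25.6 in suffix 2), and was also higher in ILC2 than in progenitors. It had 174 CPM in ILC2, 142 in NK/ILC1, 129 in gamma-delta T, 51.3 in DN2/DN3 and 45.4 in the progenitor gate. Pooled, intervals of NK/ILC1 and gamma-delta T overlapped, as did those of DN2/DN3 and the progenitor gate. Within suffix 2 all neighbouring gates had separate intervals. There NK/ILC1 had 217 CPM (205 to 229) and gamma-delta T 130 (105 to 161). DN2/DN3 had 61.6 CPM (53.1 to 71.0) and the progenitor gate 48.3 (45.2 to 51.5). Within suffix 1 the intervals of DN2/DN3 and the progenitor gate overlapped. The log2 ratio, ILC2 over progenitor, was 1.94 (1.84 to 2.04), with 1.88 in suffix 1 and 1.94 in suffix 2. Unlike Il7r, this ratio had overlapping intervals in the 2 suffixes.

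NK/ILC1 and ILC2 changed order for Il2rg between suffixes. In suffix 1 it had 102 CPM in NK/ILC1 and 140 in ILC2, a log2 ratio of -0.46 (-0.61 to -0.31). In suffix 2 it had 217 CPM in NK/ILC1 and 185 in ILC2, a log2 ratio of 0.23 (0.13 to 0.33). The difference between the suffixes was not tested.

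Il2rb, the signalling chain for interleukin 2 and 15, was concentrated in the NK/ILC1 gate. It stood at 146 CPM in NK/ILC1 (141 to 152), 20.03 in ILC2, 20.3 in gamma-delta T, 2.03 in DN2/DN3 and 0.377 in the progenitor gate (10 UMIs). The highest gate was 389-fold above the lowest, 166-fold in suffix 1 and 819-fold in suffix 2, each on 5 progenitor UMIs, and the span was the widest of the 8 members in both. Il2rb in the progenitor gate was at 0.257% of its NK/ILC1 level and the NK gene Ncr1 at 0.102% of its own, and the part of free RNA was not tested. Only the ILC2 and gamma-delta T intervals overlapped between neighbours. The log2 ratio, NK/ILC1 over ILC2, was 2.87 (2.69 to 3.05), with 2.21 (1.89 to 2.54) within suffix 1 and 3.52 (3.31 to 3.74) within suffix 2. Leaving out NK/ILC1 barcodes with epithelial transcripts, the pooled ratio was 3.00 (2.82 to 3.18).

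At equal depth 74.9% of suffix 2 NK/ILC1 barcodes had an Il2rb UMI (344 of 459, unthinned 87.5%), and 46.8% of suffix 1 ones (364 of 777, unthinned 60.6%). The progenitor gate had 0 of 785 at this depth, which limits barcodes with a UMI at 6974 UMIs to 0.382% and not barcodes that express the gene. Unthinned, 10 of 786 had a UMI (1.27%). In the ILC2 gate it was 15.4% in suffix 1 (unthinned 25.9%) and 10.1% in suffix 2 (unthinned 19.3%). NK/ILC1 markers summed to 623 CPM in the suffix 1 ILC2 gate and to 86.4 CPM in the suffix 2 one, with 0 of 8 at 0 in either. Their part in the ILC2 values of Il2rb was not tested.

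**Figure D3:**
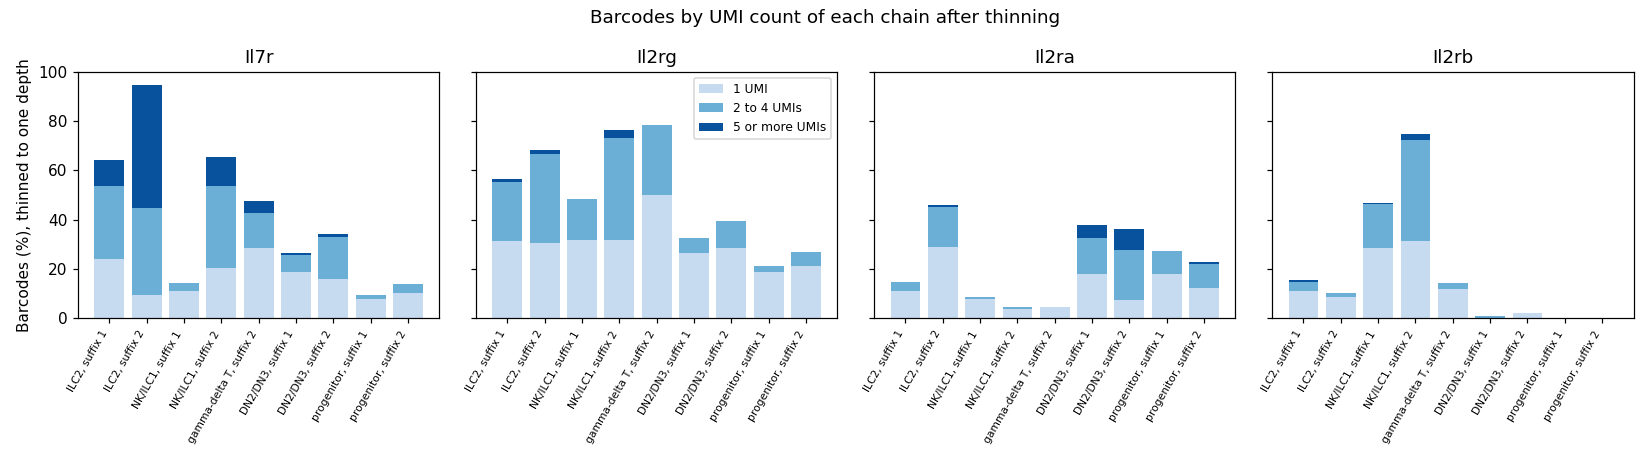
Percent of barcodes (y axis) with 1, 2 to 4, or 5 or more UMIs of Il7r, Il2rg, Il2ra and Il2rb after thinning to 6974 UMIs, by gate and suffix (x axis). Il7r reaches 94.7% of suffix 2 ILC2 barcodes, Il2rg is spread over all gates, and Il2rb has no bar in the progenitor gate, where 0 of 785 barcodes had a UMI.

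Il2ra, the alpha chain that raises affinity for interleukin 2, had another order. It was highest in the DN2/DN3 gate at 157 CPM (148 to 166), with 79.5 in ILC2, 61.8 in the progenitor gate, 14.5 in gamma-delta T and 10.6 in NK/ILC1. The last 2 had overlapping intervals. A DN1 sort takes cells low for CD25 protein by definition, and these are transcript counts. The log2 ratio, DN2/DN3 over progenitor, was 1.34 (1.24 to 1.45), with 1.26 (1.08 to 1.44) within suffix 1 and 1.61 (1.47 to 1.75) within suffix 2. With barcodes of several gates kept in each of them, the pooled ratio was 0.84, inside 2-fold.

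In ILC2 against progenitor barcodes the direction of Il2ra depended on the suffix. Suffix 1 had 29.8 CPM in ILC2 and 54.4 in the progenitor gate, a log2 ratio of -0.87 (-1.18 to -0.56). Suffix 2 had 96.5 CPM in ILC2 and 64.8 in the progenitor gate, a log2 ratio of 0.57 (0.45 to 0.69). The difference was not tested.

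Il2ra was uneven among DN2/DN3 barcodes. At equal depth 37.9% of suffix 1 and 36.2% of suffix 2 barcodes held a UMI (unthinned 60.4% and 43.8%), and the most in any was 9. The variance of thinned counts was 2.89 times their mean in suffix 1 and 3.35 times in suffix 2, where pure counting noise gives a ratio near 1. For Il2rg in ILC2 barcodes the pooled ratio was 1.22. Unevenness was not particular to Il2ra in this gate. For Il7r the ratio was 2.78 in suffix 1 and 2.98 in suffix 2 among ILC2 barcodes. Among NK/ILC1 barcodes it was 1.67 in suffix 1 and 3.44 in suffix 2.

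Another 93 barcodes passed the DN2/DN3 and the progenitor gates together, with a median of 44130 UMIs, and no barcode among them is in the comparison above. Il7r stood there at 56.8 CPM and Il2ra at 148 CPM. Over the progenitor gate the log2 ratios were 1.19 (0.97 to 1.41) for Il7r and 1.26 (1.13 to 1.40) for Il2ra, with 1.14% of all genes past 2-fold (33 of 2890). Il15ra, the chain that presents interleukin 15, was also past 2-fold, at 1.20 (0.79 to 1.59), and Il9r at 1.01 (0.45 to 1.54). High depth could come from 2 cells in a droplet, and the part of doublets was not tested.

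**Figure D4:**
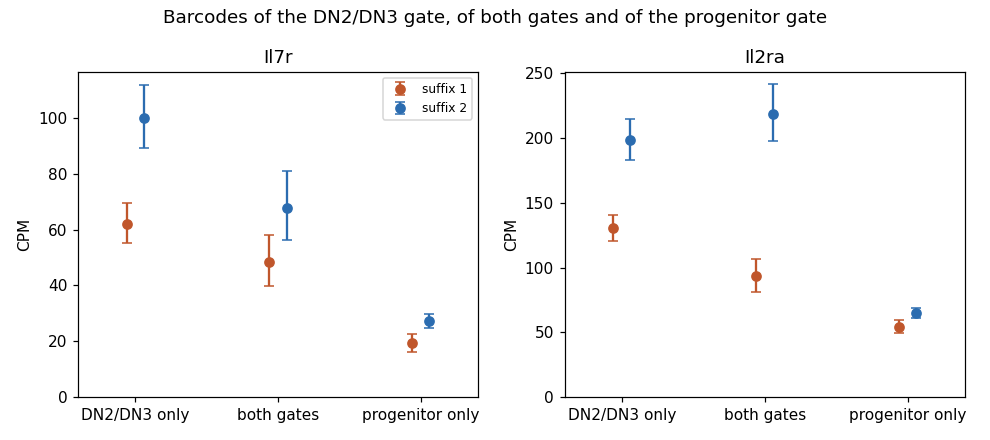
Level of Il7r and Il2ra in CPM (y axis) in barcodes of the DN2/DN3 gate only, of both gates, and of the progenitor gate only (x axis), by suffix, with exact Poisson 95% intervals. Both genes are lowest in the progenitor gate, and in suffix 2 Il2ra in barcodes of both gates (219 CPM) is no lower than in the DN2/DN3 gate (198 CPM).

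Within the progenitor gate both chains were seen more often in barcodes with a UMI of Tcf7, the T lineage factor TCF-1. In suffix 2, after thinning, Il7r was in 18.8% of 309 barcodes with Tcf7 (Clopper-Pearson 95% interval 14.6 to 23.6%) and 7.76% of 245 without (4.73 to 11.8%). Il2ra was in 32.7% with Tcf7 (27.5 to 38.2%) and 10.2% without (6.71 to 14.7%). Suffix 1 had the same direction for Il2ra, 33.3% with Tcf7 (25.6 to 41.8%) and 17.8% without (10.5 to 27.3%), but these intervals overlapped. There the Il7r shares of 11.3% and 6.67% had overlapping intervals too. Barcodes with Flt3, a receptor of early progenitors, held Il2ra in 4.92% of 61 in suffix 2 (1.03 to 13.7%) and those without in 24.9% of 493 (21.2 to 29.0%).

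Il9r, the chain for interleukin 9, a factor for ILC2 survival, followed Il7r in being highest in the ILC2 gate. It had 48.5 CPM in ILC2, 9.44 in NK/ILC1, 8.69 in gamma-delta T, 9.65 in DN2/DN3 and 4.67 in the progenitor gate. Intervals of NK/ILC1, gamma-delta T and DN2/DN3 overlapped. The log2 ratio, ILC2 over progenitor, was 3.38 (3.10 to 3.66), with 2.04 in suffix 1 and 3.84 in suffix 2. For NK/ILC1 over ILC2 it was -2.36 (-2.61 to -2.11). This is the member whose window, printed above, holds 2 AGATAA matches. The RefSeq window of Il7r, also highest in ILC2, held 0. That window lies inside the transcribed region of the GENCODE M21 gene, so the bases upstream of that gene were not searched. A link between matches and levels was not tested.

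Il21r, the chain for interleukin 21, stood lower in ILC2 and NK/ILC1 than in the T lineage and progenitor gates. It stood at 89.8 CPM in gamma-delta T (62 UMIs, 68.9 to 115), 10.6 in NK/ILC1, 9.95 in ILC2, 41.0 in DN2/DN3 and 43.4 in the progenitor gate. Pooled, NK/ILC1 and ILC2 had overlapping intervals, as did the progenitor gate and DN2/DN3. The gamma-delta T barcodes were nearly all of suffix 2. Within suffix 2, gamma-delta T had 91.9 CPM (70.4 to 118) and DN2/DN3 71.3 (62.2 to 81.3), with overlapping intervals. The progenitor gate had 50.2 CPM there. The log2 ratio was -2.12 (-2.38 to -1.87) for ILC2 over progenitor and 3.04 (2.57 to 3.49) for gamma-delta T over ILC2 within suffix 2. With all 114 suffix 2 barcodes that passed the gamma-delta T gate, overlaps included, Il21r had 101 CPM (87.5 to 115).

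Il4ra, the chain for interleukin 4 and 13, was low throughout, with 9.34 CPM in ILC2, 4.26 in NK/ILC1, 4.35 in gamma-delta T, 8.76 in DN2/DN3 and 17.2 in the progenitor gate. ILC2 had less of it than progenitors in both suffixes, with a log2 ratio of -1.56 (-2.39 to -0.81) in suffix 1 and -0.77 (-1.08 to -0.47) in suffix 2. Il15ra, with the fewest UMIs of the 8, lay between 3.68 CPM in ILC2 and 9.02 in DN2/DN3. Its DN2/DN3 level differed by suffix, 13.4 CPM in suffix 1 (64 UMIs) and 2.27 in suffix 2 (7 UMIs), a log2 ratio of 2.56 (1.43 to 3.93).

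Counted over the members, 4 of 8 were more than 2-fold higher in ILC2 than in progenitors (Il7r, Il2rg, Il2rb and Il9r), where 11.5% of genes were higher, and 2 lower (Il15ra and Il21r), where 9.19% were. Within suffix 2, Il15ra was inside 2-fold at -0.74. For NK/ILC1 over ILC2, 1 was higher (Il2rb, background 3.95%) and 4 lower (Il7r, Il2ra, Il9r and Il4ra, background 6.61%). Within suffix 1, Il4ra had 4.35 CPM in NK/ILC1 and 4.53 in ILC2, a log2 ratio of -0.06, and within suffix 2 the ratio was -1.43. The gamma-delta T gate had 1 higher than ILC2 (Il21r, background 5.13%) and 4 lower (background 4.64%), of which Il4ra rests on 3 UMIs with an interval across 0. For DN2/DN3 over progenitor, 4 were higher (Il7r, Il2ra, Il2rb and Il9r, background 1.81%) and 0 lower (background 1.98%). Of these, Il2rb rests on 16 UMIs in DN2/DN3 and 10 in the progenitor gate, and Il9r had log2 ratios of 0.79 and 0.86 within suffix 1 and suffix 2, inside 2-fold. The background counts only genes of at least 50 CPM in either gate, a level that 3 members reached in ILC2 over progenitor, 4 in NK/ILC1 and gamma-delta T over ILC2, and 3 in DN2/DN3 over progenitor. The median log2 ratio of the 8 members was 1.15 in ILC2 over progenitor and 0.65 in DN2/DN3 over progenitor, beside -0.10 and 0.08 over genes of at least 50 CPM. Over the 3 members at that level it was 1.94 in ILC2 over progenitor and 1.34 in DN2/DN3 over progenitor, with 2 higher and 0 lower in each. Of the 4 at that level in NK/ILC1 and in gamma-delta T over ILC2, 1 was higher and 2 lower in each. These medians describe a short list chosen with results in view.

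Between suffixes, 4 of 8 members were past 2-fold in ILC2, 2 in NK/ILC1, 2 in DN2/DN3 and 1 in the progenitor gate. For suffix 1 over suffix 2 in ILC2, the log2 ratio was -1.71 (-1.82 to -1.61) for Il7r, -1.69 for Il2ra, -1.05 for Il9r and -1.28 for Il4ra, and -0.40 for Il2rg. Past 2-fold were 6.23% of genes (186 of 2984). Il1rl1 moved with them, at 28.2 CPM in suffix 1 and 256 in suffix 2. The summed ILC2 list was 606 CPM in suffix 1 and 828 in suffix 2, with 0 of 8 markers at 0 in either. Markers of other cells differed in this gate too. The 8 NK/ILC1 markers summed to 623 CPM in suffix 1 and 86.4 in suffix 2, with 0 at 0 in either. The 3 erythroid markers summed to 1.33 CPM in suffix 1, with Hbb-bs and Alas2 at 0, and 199 in suffix 2, with 0 at 0. Their part in the chain levels was not tested.

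In NK/ILC1 the suffix ratio was -3.27 (-3.45 to -3.09) for Il7r and -1.08 (-1.20 to -0.97) for Il2rg, where 15.1% of genes were past 2-fold (450 of 2980). Il2rb, with 108 CPM in suffix 1 and 217 in suffix 2, lay just inside 2-fold at -0.9999 (-1.11 to -0.89). Without barcodes holding epithelial transcripts, Il7r stood at -3.07 and Il2rg at -0.95, inside 2-fold, with 10.0% of genes past it (298 of 2966). With no epithelial UMI at all, Il7r was at -3.01, Il2rg at -0.80 and Il2rb at -0.67, with 7.06% of genes past 2-fold (207 of 2932). The summed NK/ILC1 markers went the other way, with 5794 CPM in suffix 1 and 4028 in suffix 2. The sum does not stand for each marker, since Ncr1 of that list had 121 CPM in suffix 1 and 196 in suffix 2.

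In the progenitor gate 0 of 8 members were lower by over 2-fold in suffix 1 and Il2rb, with 5 UMIs in each suffix, was past it with an interval across 0, where 0.627% of genes were past 2-fold (18 of 2869). In DN2/DN3, Il21r was lower in suffix 1, 21.5 CPM against 71.3 in suffix 2, a log2 ratio of -1.73 (-2.08 to -1.38), and Il15ra was higher there, at 2.56 (1.43 to 3.93), with 2.73% of genes past 2-fold (81 of 2963). Marker sums differed in the DN2/DN3 gate too. Alpha-beta thymocyte markers summed to 175 CPM in suffix 1, with Cd8a, Cd8b1 and Cd4 at 0, and to 568 in suffix 2. NK/ILC1 markers summed to 2508 CPM in suffix 1 and 748 in suffix 2, and DN2/DN3 markers to 492 and 786. Of the NK/ILC1 list, Eomes and Klrb1c were at 0 in suffix 1, and Ncr1, Eomes, Klrb1c and Klrk1 in suffix 2. Its pooled sum in this gate was 1818 CPM, most of it Gzma, whose level is given above. The part of all these markers in the Il21r and Il15ra ratios was not tested. The suffixes cannot be told apart from stage, library or embryo pool.

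Within gates, ILC2 barcodes were split by a UMI of Il1rl1. In suffix 2 Il7r was in 97.5% of 518 barcodes with Il1rl1 and 88.8% of 241 without, and Il2ra in 50.6% and 36.5%. Suffix 1 gave 37.5% of 24 with Il1rl1 and 11.6% of 164 without for Il2ra, and 83.3% (62.6 to 95.3%) and 61.6% (53.7 to 69.1%) for Il7r, with overlapping intervals. In NK/ILC1 barcodes of suffix 1 Il2rb was more often seen with the proliferation gene Mki67, 57.1% of 361 against 38.0% of 416 without it. Leaving out barcodes with epithelial transcripts, these shares were 59.2% and 44.4%. In suffix 2 the shares were 69.8% with it and 77.9% without. NK/ILC1 barcodes with Tcf7 held Il7r in 72.8% of 287 in suffix 2, and those without in 53.5% of 172. In suffix 1 the shares were 18.3% and 11.7%, with overlapping intervals. For progenitors of suffix 2, Il2ra was in 40.3% of barcodes with an Il7r UMI and 19.9% of those without.

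Ligand genes were sparse in these barcodes. Il4 reached 49.7 CPM and Il2 21.6 CPM in ILC2, against 2.64 and 0.866 in the progenitor gate. Il15 was highest in the progenitor gate at 8.51 CPM, and 2.25 in ILC2. Il7 was at most 0.460 CPM in any gate, Il9 had 0 UMIs in all 5 gates, Il21 had 1 UMI and Tslp, the ligand for Il7r paired with Crlf2, stayed at or below 0.508 CPM.

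Of 28 pathway genes, 25 had UMIs enough for a ratio in ILC2 over progenitor, 9 past 2-fold higher and 4 lower. At the level of at least 50 CPM that the background uses (11.5% higher, 9.19% lower), 5 of 12 were higher and 0 lower. Of the 5 feedback genes, 4 were past 2-fold higher and Ptpn2 was not, with 102 CPM in ILC2 and 52.9 in the progenitor gate. Among the 4, Cish stood at 84.0 CPM in ILC2 and 4.10 in the progenitor gate, a log2 ratio of 4.35 (4.07 to 4.65). Socs1 had 142 CPM in ILC2 and 15.4 in the progenitor gate, and Socs2 65.0 and 10.7. The survival gene Bcl2 had 110 CPM in ILC2 and 16.0 in the progenitor gate, a log2 ratio of 2.78 (2.62 to 2.94). Stat5a, a STAT that interleukin 7 activates, went the other way, at 11.0 CPM in ILC2 and 36.4 in the progenitor gate. Jak1 had 205 CPM in ILC2 and 105 in the progenitor gate, and Crlf2 67.9 and 49.7 CPM. For Crlf2 the direction depended on the suffix. It had 27.2 CPM in ILC2 and 43.9 in the progenitor gate in suffix 1, and 81.9 and 52.0 in suffix 2. The other pathway values are pooled over the suffixes unless a suffix is named.

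Against ILC2 the NK/ILC1 gate had 1 of 23 pathway genes past 2-fold higher and 5 lower. At 50 CPM it was 0 of 12 higher (background 3.95%) and 4 lower (background 6.61%). The higher 1 was Pim2, a kinase gene named here after its values were seen, with 29.5 CPM in NK/ILC1 and 7.63 in ILC2. Cish was 12.4 CPM in NK/ILC1 and 84.0 in ILC2, Socs2 15.8 and 65.0, while Socs1 was 120 and 142 and Mcl1 167 and 196. The gamma-delta T gate had 1 of 21 higher (Stat5a, 29.0 CPM against 11.0 in ILC2) and 4 lower than ILC2, with Cish at 10.1 CPM, on 7 UMIs, against 84.0 in ILC2. At 50 CPM it had 0 of 12 higher (background 5.13%) and 2 lower (background 4.64%). In DN2/DN3 over progenitor 5 of 24 were higher and 2 lower, and at 50 CPM 3 of 10 (background 1.81%) and 0 (background 1.98%). Bcl2 had 77.0 CPM in DN2/DN3 and 16.0 in the progenitor gate, Socs1 57.3 and 15.4, and Socs2 59.2 and 10.7, while Pim1 was 212 and 216, Ccnd2 112 and 149, Stat3 54.5 and 54.2, and Ptpn2 72.2 and 52.9.

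**Figure D5:**
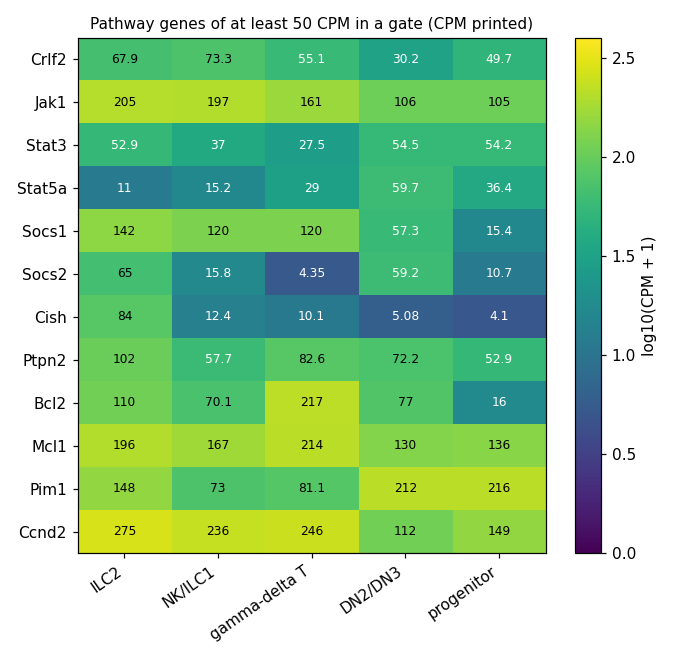
Level in CPM, printed in each cell and coloured by log10(CPM + 1), of 12 pathway genes that reach 50 CPM in at least 1 gate (rows) in the 5 gates (columns). Cish is highest in the ILC2 gate (84.0 CPM), Bcl2 lowest in the progenitor gate (16.0 CPM) and Stat5a lowest in the ILC2 gate (11.0 CPM).

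The genes most like 4 chains across 9 gate-by-suffix profiles, among 3631 genes, were named by Pearson correlation of log2(CPM + 10) as a description of profiles that share libraries. For Il2rb they were Ctsw (0.994), B3gat3, Grina, Tmem37 and Ctsd. Cathepsin W, the product of Ctsw, is a protease of NK and cytotoxic T cells, and its gene had 1006 CPM in NK/ILC1 and 12.8 in the progenitor gate. For Il2ra they were Itga4 (0.929), an integrin chain, Med21, Drap1, Sbds and Ssbp3. For Il2rg the highest were Cap1 (0.994), Lrp10, Clcn3, Ankrd44 and Rara. For Il7r they were Smim15 (0.953), Reep3 (0.950), Birc6, Fli1 and Rab21.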

How the data were processed

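The authors deposited 1 table of raw UMI counts, all whole numbers. The submitters' processing notes name Cell Ranger 3.0.2, STAR and GRCm38, and how barcodes were called as cells was not given. A reporter, its locus and 1 pathway gene are not reported here, though the gene stays in list counts.

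Barcodes with under 500 genes or over 10% mitochondrial UMIs were removed (542). Scrublet (scanpy 1.11.5), on each suffix apart, marked 10 doublets in suffix 1 (0.466%) and 93 in suffix 2 (2.76%), all removed. At so low a rate undetected doublets may remain in suffix 1. Counts were summed per gate and scaled to CPM, with exact Poisson, conditional exact and Clopper-Pearson 95% intervals (scipy 1.17.1, numpy 2.4.6, Python 3.11.15), which cover counting error only. For shares, barcodes were thinned to 6974 UMIs, the 10th percentile. The background is the percent of genes past 2-fold among those of at least 50 CPM in either gate. Kept barcodes held 39767463 UMIs in suffix 1 and 59222697 in suffix 2.

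On simulated data for ILC2 over progenitor, 96.0% of the intervals over 2740 genes held the true value. The simulated sums were Poisson counts, which the intervals assume. This therefore checks the calculation and not the spread between barcodes or libraries. The 8 members, the gates, the markers and the 28 pathway genes were chosen with earlier results of these data known. Named are the members, all ligands, pathway genes of at least 50 CPM in a gate, and the 5 genes most like each of 4 chains. Other gates, filters, scalings and depths were tried as alternatives. Promoter windows come from RefSeq (GRCm38.p6), where 7 of 8 members matched. Figures were drawn with matplotlib 3.10.9.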

Additional observations from a re-analysis of the deposited data

Results flagged for a closer look

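Opposite directions in the 2 suffixes were seen for 4 member ratios, and none of these differences was tested. Il2rg in NK/ILC1 over ILC2 had a log2 ratio of -0.46 in suffix 1 and 0.23 in suffix 2. Il2ra in ILC2 over progenitor had -0.87 in suffix 1 and 0.57 in suffix 2. Il15ra in DN2/DN3 over progenitor had 0.59 in suffix 1 and -1.63 in suffix 2, on 64 and 7 UMIs in the DN2/DN3 gate. Il21r in DN2/DN3 over progenitor had -0.30 in suffix 1, with an interval across 0, and 0.51 in suffix 2.

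All 8 members were also counted in barcodes outside the 5 gates. In the 1661 barcodes that passed no gate, Il7r stood at 326 CPM, Il2rg at 131, Il2ra at 72.6, Il2rb at 28.9, Il4ra at 11.7, Il9r at 24.3, Il15ra at 5.58 and Il21r at 22.4 CPM. In the 542 barcodes that failed the filters, with a median of 1492 UMIs, Il7r stood at 841 CPM, Il2rg at 375, Il2ra at 92.2, Il2rb at 105, Il4ra at 36.5, Il9r at 73.0, Il15ra at 9.61 and Il21r at 23.1 CPM. Il7r in failed barcodes was thus above its 572 CPM in the ILC2 gate. Of the failed barcodes 507 carried suffix 2.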

How the results depend on the processing

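The 5 main ratios kept their direction under all 67 alternatives, and 51 values lay inside the interval of the reported one. Il7r in ILC2 over progenitor was 4.71 with gates of at least 1 UMI, 4.14 with overlaps kept, 4.74 with barcodes weighted equally, 4.80 after thinning, 3.46 in suffix 1 and 4.68 in suffix 2. Il2rb in NK/ILC1 over ILC2 was 2.48 with overlaps kept, 3.15 with no epithelial UMI, an alternative chosen after seeing the data, 2.21 in suffix 1 and 3.52 in suffix 2. Il7r in gamma-delta T over ILC2 was -1.79 with gates of 1 UMI. Il2ra in DN2/DN3 over progenitor was 1.20 with gates of 1 UMI, 0.84 with overlaps kept, which is inside 2-fold, 1.18 with equal weights and 1.61 in suffix 2. Il7r in suffix 1 over suffix 2, ILC2 gate, was -1.60 after thinning to 6974 UMIs. The cause of these shifts was not tested. With genes of at least 20 CPM the background counts were 1265 in ILC2 over progenitor, 595 in NK/ILC1 over ILC2, 686 in gamma-delta T over ILC2, 249 in DN2/DN3 over progenitor and 396 between suffixes in ILC2, against 657, 310, 301, 111 and 186, since more genes are tested. With overlaps kept, DN2/DN3 over progenitor gave 67. Suffix 1 alone gave no gamma-delta T value, having 1 barcode. Of 24 member ratios past 2-fold, all 320 alternatives kept the direction and 302 stayed past it. These ratios were picked for their size, and the alternatives share barcodes with the main values. Over all member ratios, those inside 2-fold included, the sign changed in 6 alternatives for Il2rb, 5 for Il15ra and 5 for Il21r. It changed in 1 for Il2rg, 1 for Il2ra and 0 for Il7r, Il4ra and Il9r. Thinned to 5000 UMIs, the pooled Il7r share was 84.1% in ILC2 and 11.6% in the progenitor gate, against 88.7% and 12.6% at 6974 UMIs. No paired analysis was possible because each stage has 1 library and no column is tied to one.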
